A study of Mus musculus with 8 samples.

Results

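The ependymal motile cilia genes described here are 40 genes, chosen by name as building parts, regulators or markers of the motile cilia of ependymal cells, out of 54307 gene identifiers in the series. The list is one of names with no threshold on a value, and it was drawn up with earlier results of these data known. All 40 were found in the gene table, and all 40 passed the filter on low counts that left 17669 genes to be tested between genotypes. The lowest estimated count of any member in any mouse was 11.

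Ependymal cells form a sheet that lines the ventricles of the brain, and in the ventricular-subventricular zone (V-SVZ) of the adult lateral ventricle they surround the apical processes of the neural stem cells. Each of them carries a tuft of motile cilia whose beating moves cerebrospinal fluid. The core of such a cilium, the axoneme, is a ring of doublet microtubules around a central pair. Dynein arms on the doublets drive the beat, radial spokes and the central pair shape it, and nexin-dynein links hold the doublets together. FOXJ1 and the RFX family of transcription factors switch on the genes for these parts, and multicilin, the product of *Mcidas*, starts the formation of many cilia in one cell.

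Bulk RNA-seq was made from the periventricular area, with the V-SVZ in it, of 8 mice at 8 weeks of age, from 1 hemisphere of each brain and with polyA RNA. The 4 KO mice (2 female and 2 male) carried CreERT2 inserted in exon 1 of both copies of *Lrig1*, a germline change present in all cells that needs no induction, and the 4 WT mice (3 female and 1 male) were their littermates with both copies intact. All of them were on the 129-Elite strain background, and the labels give no agent for any. *Lrig1* (ENSMUSG00000030029.15), the targeted gene, was at 45.6, 13.5, 41.4 and 34.3 CPM (estimated counts scaled to a common library size by TMM) in WT replicates 1 to 4 and at 1.41, 4.15, 1.17 and 2.96 in KO replicates 1 to 4, so that every mouse fitted its label. Total estimated counts per mouse lay between 47887437 and 74482334. By edgeR's quasi-likelihood test 1 of 17669 genes was called between genotypes, *Gm43079*, and *Lrig1* itself was not, at -3.80 on the log2 scale (KO against WT, standard error 0.516) and a Benjamini-Hochberg adjusted p of 0.286. DESeq2 called 13 genes, *Lrig1* among them (adjusted p = 4.13e-08). Levels are given as CPM, and per length as TPM, the length-corrected share of all transcripts, summed over the transcripts of a gene.

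All the members were detected in every mouse, most of them at low levels. The mean over the mice was under 1 CPM for 3 members, from 1 to under 10 CPM for 29 and 10 CPM or more for 8, with a median of 2.81 CPM against 13.8 for all genes tested. Per length, the most abundant was *Tppp3*, which codes for a tubulin polymerization-promoting protein, at 53.6 TPM. It was followed by *Rarres2*, the gene of the secreted protein chemerin, at 30.6 TPM, by the radial spoke head gene *Rsph9* at 15.1 TPM, by the ependymal marker *Ccdc153* at 13.6 TPM and by *Drc1*, a subunit of the nexin-dynein regulatory complex, at 13.5 TPM. The ranges of the last 3 over the mice overlapped, from 11.8 to 21.7 TPM, from 6.16 to 24.0 TPM and from 11.8 to 16.7 TPM. The lowest were *Spag17* at 0.155 TPM and the dynein heavy chain genes *Dnah12* at 0.155 TPM and *Dnah11* at 0.1495 TPM.

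Promoters were compared because RFX factors bind the X-box, a pair of half-sites, in front of ciliary genes. RefSeq promoters of 300 bases (250 before a start and 50 after it, GRCm38.p6) were at hand for 32 of the 40 members. The half-site GTTGCC was searched on both strands, with GGCAAC as its reverse complement. It stood in a promoter of 16 of these 32 members, or 50%, and of 14.1% of all 27025 genes of the table. A gene with several promoters counted once, if any of them matched, and so had more chances to match. Among 87 other motile cilia genes with a promoter it stood in 35, or 40.2%. In 8 of the 32, or 25.0%, a half-site began within 20 bases of the start, against 2.58% of all genes, and in 17 of the 87 other motile cilia genes, or 19.5%. The sequences of these 8 members are shown first because their half-sites stand at like places, and those of *Dynlrb2* and *Spag16* because theirs belong to a whole X-box farther from the start. The strand of the gene is printed 5′ to 3′, and capitals mark the half-site nearest the start, on either strand. A further exact half-site stands in lower case in the stretches of *Tekt1* and *Spag16*, and outside the stretch in *Cfap44*.
*Ccdc113*, chr8:95534054-95534119, plus strand: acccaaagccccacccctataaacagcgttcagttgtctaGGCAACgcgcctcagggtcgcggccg
*Drc1*, chr5:30281342-30281412, plus strand: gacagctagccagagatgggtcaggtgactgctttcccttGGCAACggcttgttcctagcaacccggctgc
*Pifo*, chr3:106001478-106001549, minus strand: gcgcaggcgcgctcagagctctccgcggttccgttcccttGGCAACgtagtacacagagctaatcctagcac
*Hydin*, chr8:110266924-110266996, plus strand: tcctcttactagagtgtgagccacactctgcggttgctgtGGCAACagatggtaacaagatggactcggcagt
*Tekt1*, chr11:72361863-72361937, minus strand: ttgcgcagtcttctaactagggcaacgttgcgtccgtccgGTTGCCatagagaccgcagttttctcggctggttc
*Cfap44*, chr16:44394740-44394815, plus strand: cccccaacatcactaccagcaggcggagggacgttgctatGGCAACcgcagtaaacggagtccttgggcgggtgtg
*Spef2*, chr15:9748849-9748900, minus strand: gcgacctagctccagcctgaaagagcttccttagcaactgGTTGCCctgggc
*Tekt4*, chr17:25471558-25471609, plus strand: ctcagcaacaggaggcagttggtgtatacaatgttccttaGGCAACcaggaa
*Dynlrb2*, chr8:116504924-116504999, plus strand: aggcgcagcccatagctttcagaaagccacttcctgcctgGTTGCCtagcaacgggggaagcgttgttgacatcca
*Spag16*, chr1:69826827-69826902, plus strand: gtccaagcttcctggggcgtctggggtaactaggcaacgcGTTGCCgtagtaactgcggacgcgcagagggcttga

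In these sequences the marked half-site began 6 bases before the start in *Ccdc113*, 11 in *Drc1*, 12 in *Pifo*, 13 in *Hydin*, 15 in *Tekt1* and 19 in *Cfap44*, and 8 bases after it in *Spef2* and *Tekt4*. In *Ccdc113*, *Drc1*, *Pifo*, *Hydin*, *Cfap44* and *Tekt4* it read GGCAAC along the gene, and in the others GTTGCC. The whole X-box was searched on both strands by a looser pattern, in which either half-site may differ from GTTGCC in some letters and 0 to 3 bases lie between them. It stood in 5 of the 32 members, or 15.6%, namely *Cfap44*, *Dynlrb2*, *Hydin*, *Spag16* and *Spef2*. It also stood in 14 of the 87 other motile cilia genes, or 16.1%, and in 1.75% of all genes of the table. The half-sites of the remaining members stood farther off, at 105 bases before the start in *Mlf1*, 116 in *Rfx2*, 152 in *Ccdc153* and 195 in *Mcidas*, and after it at 31 bases in *Rfx3* and 34 in *Spag6l*. The forkhead motif GTAAACA or its reverse complement TGTTTAC stood in 3 of the 32 members, or 9.38%. It stood in 6 of the 87 other motile cilia genes, or 6.9%, and in 4.05% of all genes of the table. A match says only that these letters are there.

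Between genotypes no member was called. The quasi-likelihood test of edgeR, with Benjamini-Hochberg adjustment over all genes, gave each of the 40 an adjusted p of 1.0 and so called 0 of them at the threshold of 0.1, where 0.00566% of all genes passed, and DESeq2 also called 0, where 0.0736% passed. Without adjustment, 0 of 40 had a p under 0.05 in edgeR or in DESeq2, against 1.88% of all genes in edgeR, and the lowest p of a member was 0.233. In 0 of the 40 did the CPM of the 4 KO mice lie wholly to one side of the 4 WT mice, against 1.53% of all genes. The log2 fold change of KO against WT was above 0 for 28 members and below 0 for 12, with a median of 0.08, and the median of all genes tested was -0.00094. Of all 17669 genes tested, 8786 were above 0 and 8883 below. In a bulk sample, fewer ependymal cells and less RNA per ependymal cell cannot be told apart. The standard errors (SE) of the log2 fold changes lay between 0.125 and 0.587, and for 37 of the 40 the fold change with 2 standard errors on either side stayed within a 2-fold change. A p above the threshold does not show that the level was equal, and values per mouse follow for the members that stand for each role.

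**Figure D1:**
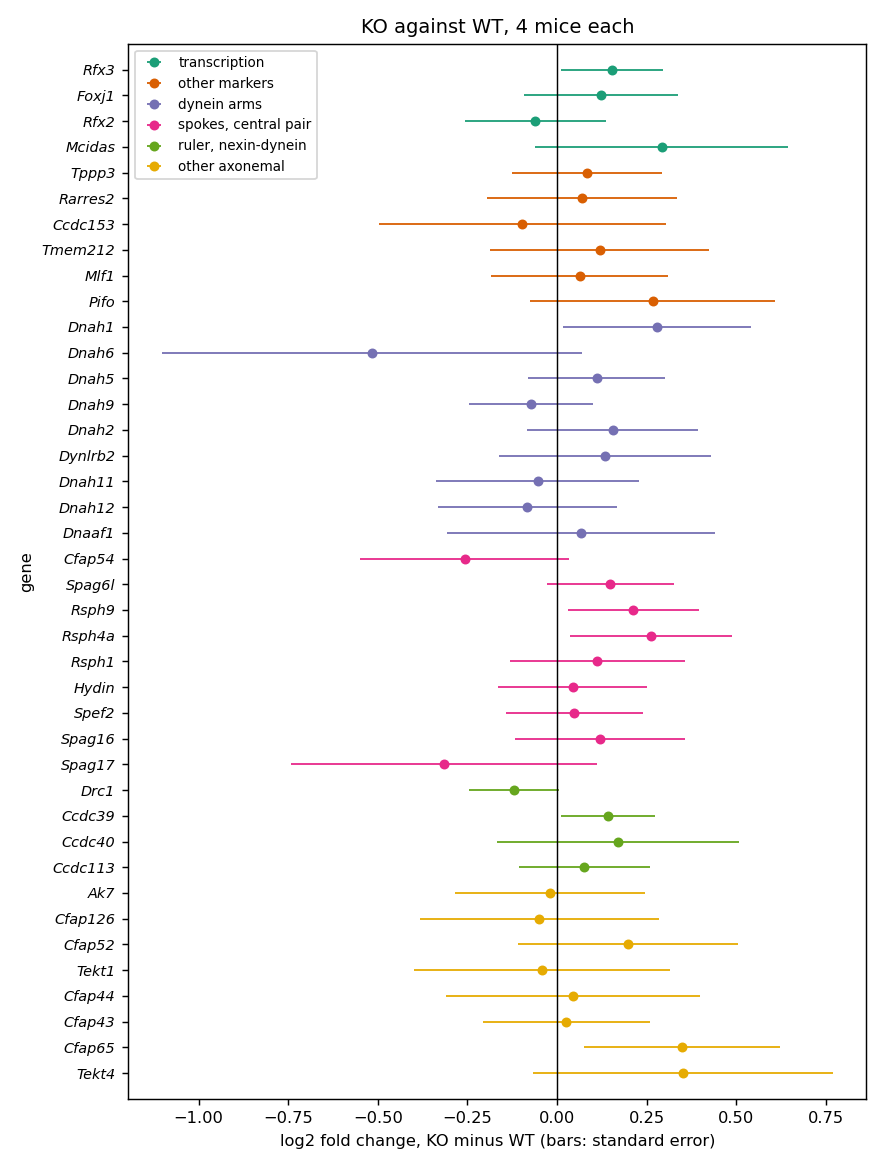
Log2 fold change of each of the 40 members, KO minus WT, on the x axis, with bars for the standard error from edgeR's fit of 4 WT and 4 KO mice, and the genes on the y axis grouped by role in colours. Most points lie close to 0, between -0.52 for *Dnah6* and 0.35 for *Tekt4*, and 28 of 40 lie to the right of 0.

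Of the 4 members that act in transcription, 3 had a fold change above 0. *Foxj1* (ENSMUSG00000034227.8), the forkhead factor of motile ciliogenesis, was at 11.3, 11.1, 15.1 and 15.6 CPM in WT replicates 1 to 4 and at 13.05, 18.9, 9.57 and 16.2 CPM in KO replicates 1 to 4. Both the highest and the lowest mouse were KO, so the genotypes overlapped throughout. Its change between genotypes was, on the log2 scale, 0.12 (SE 0.215), and it was -0.03 without KO replicate 2. *Rfx3* (ENSMUSG00000040929.18), an RFX factor, was the member with the most reads, at 57.0, 43.2, 57.5 and 39.5 CPM in WT and 49.2, 51.1, 55.2 and 63.6 CPM in KO. These mice too overlapped, although the highest was KO replicate 4 and the lowest WT replicate 4. On the log2 scale KO differed from WT by 0.15 (SE 0.142). *Rfx3* and *Foxj1* stood close together per length, at 8.19 and 7.66 TPM, since the transcript of *Rfx3* that took 79.2% of its reads is 9146 bases long and the single one of *Foxj1* is 2623. *Mcidas* was at 0.234 to 0.387 CPM in WT and 0.237 to 0.566 CPM in KO, from 11 to 32 estimated counts per mouse, and its spread in log2(CPM + 1) was the narrowest of the members, as its low level fixes in part. *Rfx2* had a log2 fold change of -0.06 (SE 0.197).

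The dynein arm genes hold 7 heavy chains, the motors themselves, together with the light chain gene *Dynlrb2* and the assembly factor gene *Dnaaf1*. Of these 9 members 5 had a fold change above 0. *Dnah1* (ENSMUSG00000019027.9), an inner arm heavy chain, was at 17.7, 10.9, 18.0 and 20.1 CPM in WT and 22.5, 28.8, 13.5 and 16.1 CPM in KO. KO replicate 2 was highest and WT replicate 2 lowest, and the other mice of both genotypes lay between them. The change from WT to KO in log2 was 0.28 (SE 0.262). On average 59.9% of the reads of *Dnah1* went to a transcript of 2897 bases annotated as not coding and 40.1% to the coding one of 12872 bases, in shares that moved from 52.9% to 64.6% for the former, so that less than the whole level reflects the mRNA of the motor. The outer arm heavy chains *Dnah5*, *Dnah9* and *Dnah11* had log2 fold changes of 0.11, -0.07 and -0.05, with standard errors of 0.191, 0.172 and 0.283.

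*Dnah6* (ENSMUSG00000052861.14), a further inner arm heavy chain, varied most of the members. It was at 13.9, 4.35, 18.5 and 11.0 CPM in WT and at 18.4, 6.47, 2.84 and 5.71 CPM in KO, a 6.51-fold range. WT replicate 3 and KO replicate 1 were highest and KO replicate 3 lowest. The log2 fold change, the most negative among the members, was -0.52 (SE 0.587), and with 1 mouse left out it lay between -1.25, without KO replicate 1, and -0.23, without WT replicate 3. Its transcripts of 12652 and 12513 bases took 93.2% and 6.78% of its reads. The striatal medium spiny neuron list of 13 genes, given as the mean of log2(CPM + 1) less the mean of the mice, was at 0.40, -1.0, 0.61 and -0.04 in WT and 0.31, -0.30, -0.21 and 0.22 in KO. Its 2 highest mice were WT replicates 3 and 1 and its lowest WT replicate 2, and its part in the level of *Dnah6* was not tested. *Mns1*, a gene of the doublet interior that is not a member, was singled out after its values were seen. It was likewise low in WT replicate 2 at 3.29 CPM, KO replicate 2 at 4.91 CPM and KO replicate 3 at 3.22 CPM. In the other mice *Mns1* was between 9.996 and 14.4 CPM. Its highest mouse was KO replicate 4, where *Dnah6* was low at 5.71 CPM, so these genes differed there.

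Of the 9 radial spoke and central pair genes, 6 were highest in KO replicate 2 and 4 were lowest in KO replicate 3. *Rsph9*, a spoke head gene, was at 6.55, 6.61, 7.10 and 7.99 CPM in WT and at 7.89, 11.0, 5.83 and 8.07 CPM in KO. KO replicate 2 was highest, KO replicate 3 lowest, and the WT mice filled the range between. *Cfap54* (ENSMUSG00000020014.19), which codes for a central pair protein, was the member of this role with the most reads, at 11.9, 13.8, 17.5 and 18.9 CPM in WT and 6.13, 16.6, 13.4 and 15.8 CPM in KO. It was lowest in KO replicate 1, unlike any other member. KO against WT gave a log2 fold change of -0.26 (SE 0.292). Its 2 main transcripts, of 9903 and 9516 bases, took 59.7% and 37.5% of its reads in that mouse, close to their means of 57.3% and 40.9% over the mice. *Spag17* (ENSMUSG00000027867.11), also of the central pair, was at 0.342, 0.867, 1.0 and 1.57 CPM in WT and 0.762, 1.10, 0.557 and 0.615 CPM in KO. Its WT mice held both the highest and the lowest value. Its change between genotypes was, on the log2 scale, -0.32 (SE 0.427) and turned to 0.04 without WT replicate 4. The other 7 members of this role, *Hydin* and *Spef2* among them, had log2 fold changes above 0.

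Among the 4 genes of the molecular ruler and the nexin-dynein links, *Drc1* (ENSMUSG00000073102.8) had the most reads, at 19.4, 22.2, 22.7 and 22.9 CPM in WT and 23.4, 22.3, 16.3 and 18.3 CPM in KO. The 2 lowest mice were KO and so was the highest. On the log2 scale KO differed from WT by -0.12 (SE 0.125). *Ccdc39* (ENSMUSG00000027676.12), which with *Ccdc40* sets the repeat along the doublets, varied least beside *Mcidas*, between 5.55 and 7.03 CPM in WT and between 5.61 and 7.75 CPM in KO. The span of *Ccdc39*, introns included, overlaps that of *Ttc14* on the opposite strand. Overlap of exons was not checked and the counting is not stated to use strand, so some of its reads may be uncertain. The same holds for 7 other members whose span overlaps a protein-coding gene on the opposite strand, *Rarres2*, *Rsph9*, *Cfap43*, *Dnaaf1*, *Dnah11*, *Mlf1* and *Spag17*. In all, the spans of 20 of the 40 overlap some annotated gene there. *Ccdc40* was at 2.73, 2.52, 3.09 and 5.89 CPM in WT and 3.57, 6.25, 2.74 and 3.44 CPM in KO, with WT replicate 4 and KO replicate 2 apart from the others.

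The other axonemal genes were led by *Ak7* (ENSMUSG00000041323.7), an adenylate kinase of cilia, at 5.70, 5.79, 8.44 and 8.604 CPM in WT and 5.72, 10.8, 4.80 and 6.86 CPM in KO. Its means were 7.14 ± 1.60 CPM in WT and 7.04 ± 2.63 CPM in KO (SD, n = 4), a log2 fold change of -0.02 (SE 0.265). The 2 largest positive fold changes of the 40 were in this role. *Tekt4* (ENSMUSG00000024175.3), a tektin filament of the doublets, was at 0.558, 0.524, 0.980 and 1.57 CPM in WT and 1.09, 1.63, 0.610 and 1.29 CPM in KO, a log2 fold change of 0.35 (SE 0.419). *Cfap65* (ENSMUSG00000047021.15) was at 1.28, 1.67, 1.62 and 2.41 CPM in WT and 2.32, 3.20, 1.66 and 1.70 CPM in KO, a log2 fold change of 0.35 (SE 0.272). In both genes WT replicate 4 was above 3 of the 4 KO mice, and without KO replicate 2 the log2 fold changes were 0.14 for *Tekt4* and 0.12 for *Cfap65*.

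Of the 6 further ependymal markers, *Tppp3* (ENSMUSG00000014846.13) was at 28.6, 31.7, 31.8 and 39.7 CPM in WT and 28.8, 51.3, 26.2 and 33.3 CPM in KO. KO replicate 2 stood above all other mice. The change from WT to KO in log2 was 0.08 (SE 0.208) and -0.16 without that mouse. *Ccdc153* (ENSMUSG00000070306.4) had the second widest spread of the members, at 3.63, 5.76, 7.16 and 8.56 CPM in WT and 5.80, 10.4, 2.82 and 4.41 CPM in KO, with a log2 fold change of -0.10 (SE 0.4). Here KO replicates 2 and 3 were the ends of the range and the WT mice lay inside it. In this role KO replicate 2 was highest and KO replicate 3 lowest for 6 of 6 genes, *Rarres2*, *Tmem212*, *Pifo* and *Mlf1* with them.

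**Figure D2:**
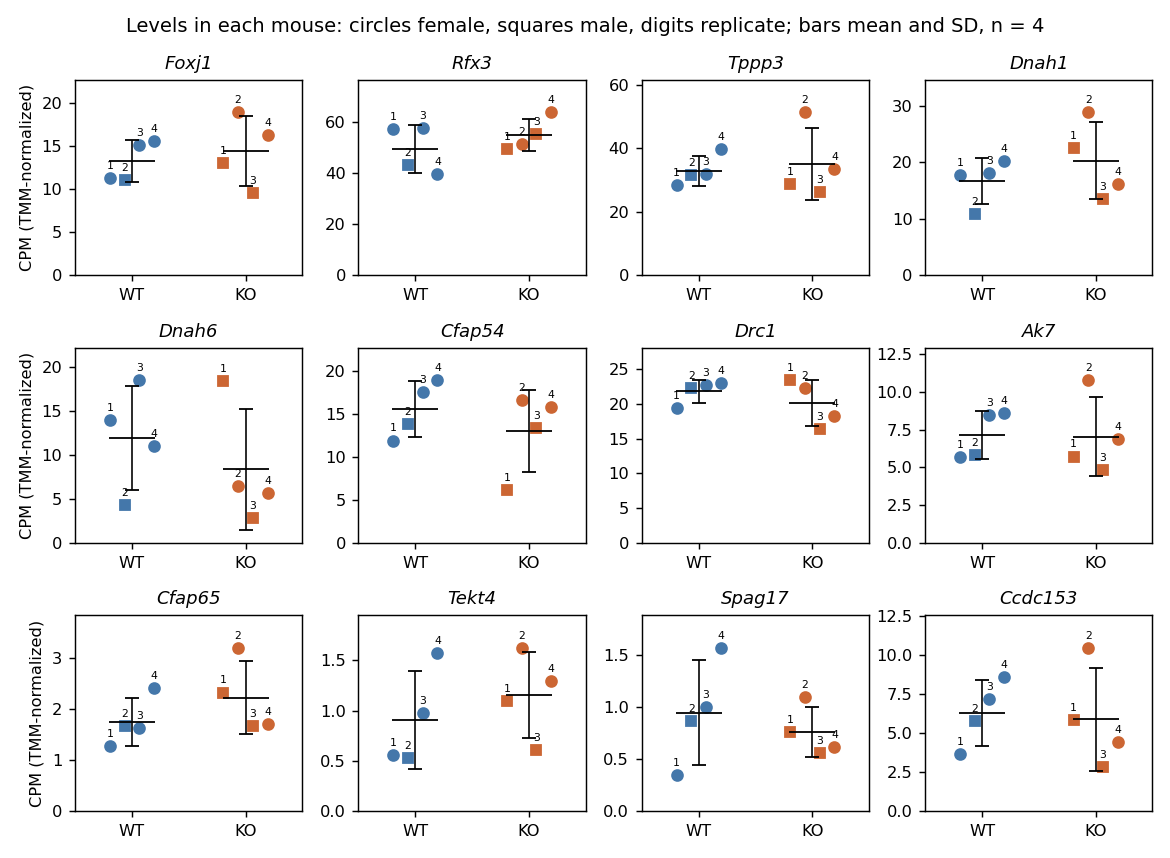
TMM-normalized CPM (y axis, from 0) of 12 members in each mouse, WT in blue and KO in orange, with circles for female and squares for male mice, the replicate number beside each point, and black bars for the mean and SD of 4 mice. WT and KO overlap for all 12 genes, KO replicate 2 is on top for *Foxj1*, *Tppp3*, *Dnah1*, *Ak7*, *Cfap65*, *Tekt4* and *Ccdc153*, and *Dnah6* has its 2 highest mice in different genotypes.

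The same 2 mice recurred at the ends of the range. KO replicate 2, a female, had the highest CPM of the 8 mice in 29 of 40 members (72.5%), against 16.0% of all genes tested. KO replicate 3, a male, had the lowest in 22 of 40 (55.0%), against 9.06% of all genes. KO replicate 2 was above KO replicate 3 in 38 of 40 members, *Rfx3* and *Mcidas* being the exceptions, with a median ratio of 1.96 against 0.992 over all genes. By role the median ratio was 2.54 for the further markers, 2.45 for the other axonemal genes, 1.88 for the dynein arms and for the spokes and central pair, 1.51 for the ruler and nexin-dynein genes and 1.05 for the 4 transcription genes. The mean of log2(CPM + 1) over the members, less the mean of the mice, was -0.19, -0.18, 0.13 and 0.19 in WT and 0.01, 0.35, -0.32 and 0.02 in KO, a KO minus WT difference of 0.03 beside SDs of 0.197 in WT and 0.274 in KO.

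Members moved together from mouse to mouse. Within a genotype the SD of log2(CPM + 1), pooled over the genotypes, had a median of 0.286 over the members against 0.155 over all genes. With the mean of the other 39 members taken off in each mouse it was 0.165, and it was narrower than before in 36 of 40 members. It was wider in *Rfx3*, *Mcidas*, *Ccdc39* and *Spag6l*. *Dnah6* and *Cfap54* kept the widest spread after this step, at 0.835 and 0.451. With KO replicate 2 left out, the median log2 fold change of the members changed from 0.08 to -0.11, and 12 in place of 28 members were above 0. With KO replicate 3 left out it was 0.21, with 35 above 0. With both left out, a choice made after seeing these values, it was 0.03, with 28 above 0.

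**Figure D3:**
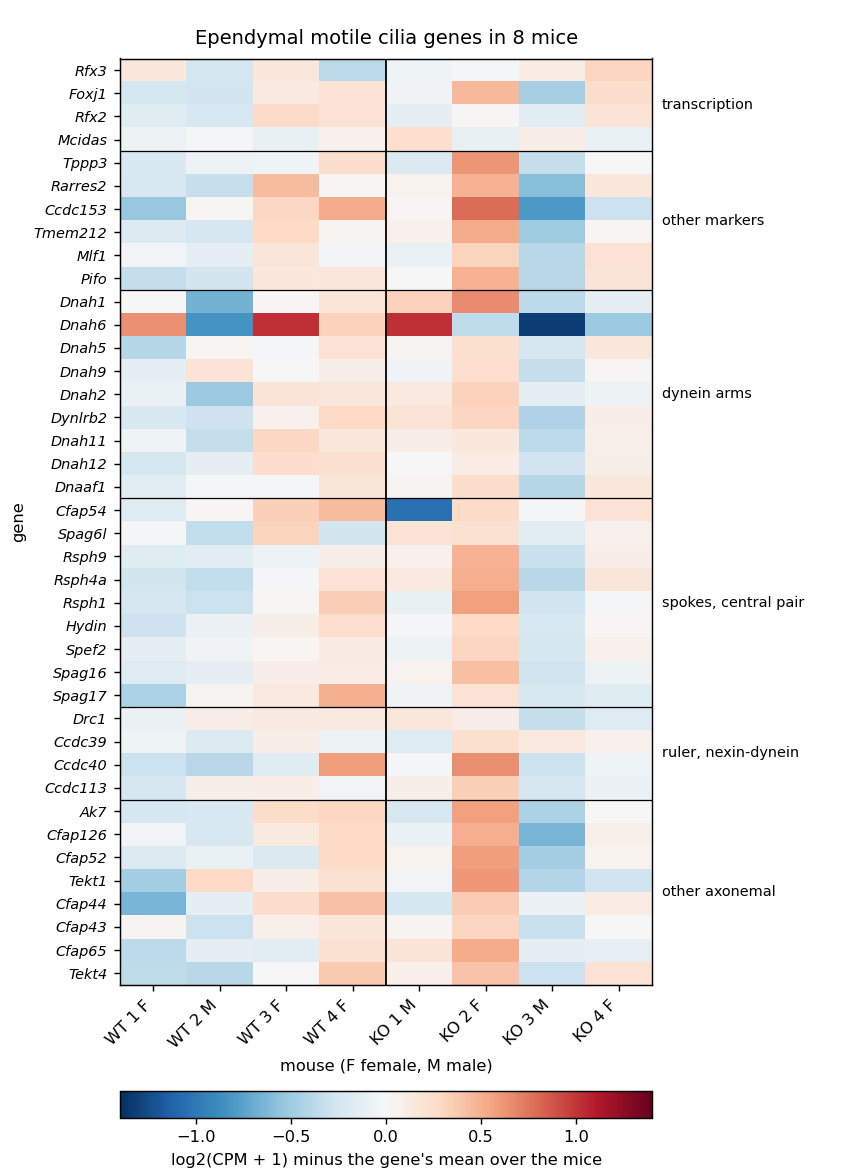
Log2(CPM + 1) less the mean of the gene over the 8 mice (colour, red above and blue below) for the 40 members in rows, grouped by role, and the mice in columns, F for female and M for male. The column of KO replicate 2 is red and that of KO replicate 3 blue in most rows. Among those that break this pattern are *Rfx3* and *Mcidas*, higher in KO replicate 3 than in KO replicate 2, and *Dnah6*, low in both. *Cfap54* is lowest in KO replicate 1.

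Lists of other cells and regions also differed between these mice. KO replicate 2 was highest in the choroid plexus list, whose epithelium lies in the ventricle, at 0.56, and the range of the summed level of its 11 tested genes was 20.3 to 70.4 CPM in WT and 40.4 to 97.0 CPM in KO. It was highest as well in the septal and hypothalamic list at 2.27, with sums of 41.6 to 203.4 CPM in WT and 74.5 to 616.8 CPM in KO, and lowest in the oligodendrocyte list at -0.31, with sums of 7617 to 8285 CPM in WT and 6416 to 8146 CPM in KO. KO replicate 3 was at -0.12, -0.50 and 0.07 in these lists. The cortical excitatory neuron list was at 0.12, 2.32, -1.14 and -0.21 in WT and 0.39, -1.16, 1.24 and -1.55 in KO, with sums of 207.7 to 2265 CPM in WT and 165.0 to 1073 CPM in KO. It was high in KO replicate 3 and low in KO replicate 2, the reverse of the members. Of the lists for other cells of the ventricle wall, that of neural stem cells and astrocytes spanned -0.13 to 0.21 over the mice. The neuroblast and progenitor list was at -0.105, -0.192, 0.0853 and 0.205 in WT and 0.11, 0.138, -0.216 and -0.0256 in KO, with sums of 527.7 to 573.9 CPM in WT and 522.4 to 627.0 CPM in KO. Like the members it was lowest in KO replicate 3, and its highest mice were WT replicate 4 and KO replicate 2. With the cortical level as a covariate, added after these values were seen, the median log2 fold change of the members between genotypes was -0.02, with 17 of 40 above 0. The part of these lists in the levels of the members was not tested further.

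**Figure D4:**
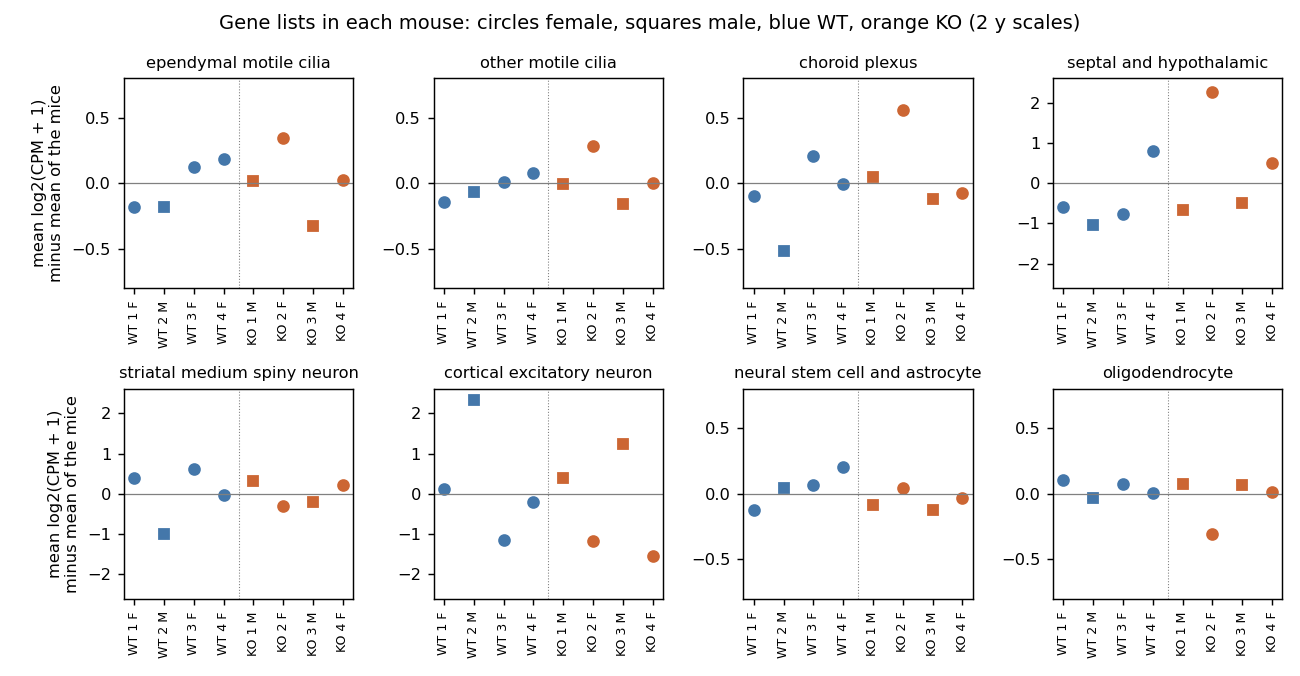
Mean log2(CPM + 1) of each of 8 gene lists less its mean over the mice (y axis, log2, on a narrower scale in the panels of cilia, choroid plexus, neural stem cell and oligodendrocyte genes) for each mouse (x axis), circles female and squares male, WT blue and KO orange. The members are highest in KO replicate 2 at 0.35 and lowest in KO replicate 3 at -0.32, while the cortical list is at -1.16 and 1.24 in these mice.

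A wider list of motile cilia genes, none of them members, was also tested. Of 112 listed genes 102 were tested, 81 with a log2 fold change above 0 and 21 below, 0 called and 0 at an unadjusted p under 0.05 in edgeR and 0 called in DESeq2, with a median of 0.10. Among all 17669 genes tested, 8786 were above 0. KO replicate 2 was highest in 65 of 102 and KO replicate 3 lowest in 29 of 102, and the median ratio between them was 1.56. Without KO replicate 2 the median was -0.05, with 39 of 102 above 0. The 3 with the most reads were the axonemal light chain gene *Dnal1* at 117.2 CPM in WT and 118.9 in KO, *Cfap20* at 27.4 and 29.4, and the radial spoke gene *Rsph3b* at 18.6 and 19.3. *Spag6*, a close copy of the member *Spag6l*, was at 0.523 CPM in WT and 0.385 in KO against 7.62 and 8.45 for *Spag6l*. Reads that *Spag6* and *Spag6l* share may have been split between them. The WT mean of *Spag6* rested on WT replicate 2 at 1.36 CPM, with the other WT mice between 0.184 and 0.298 CPM. Of 21 tested regulators of multiciliation 12 were higher and 9 lower, 0 were called, and 1, *Sass6* of the centriole cartwheel, had an unadjusted p under 0.05. *Sass6* was at 3.20, 3.47, 4.22 and 3.53 CPM in WT and 4.38, 5.47, 5.32 and 4.38 CPM in KO, so every KO mouse was above every WT mouse, with a log2 fold change of 0.44 (SE 0.137) and an adjusted p of 1.0 in edgeR. Over all genes, the genotypes did not overlap in 1.53%, and 1.88% had an unadjusted p under 0.05 in edgeR. The regulators with the most reads, *Tfdp1*, *Rfx7* and *Cep63*, had log2 fold changes of 0.01, -0.03 and 0.06.

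The sexes were unevenly spread over the genotypes, so males were also compared with females with genotype in the fit. In male mice 39 of 40 members were lower, with a median log2 fold change of -0.46 against -0.0029 for all 18104 genes tested, and *Mcidas* was higher, at 0.62 (SE 0.35). Of the 17669 genes tested between genotypes, 8957 were lower in males. No member was called by edgeR (lowest adjusted p = 0.175, Benjamini-Hochberg), where 3.77% of all genes were, while 10 of 40 (25.0%) had an unadjusted p under 0.05, all lower in males, against 6.39% of all genes lower in males. *Foxj1*, at 15.4 CPM on average in the 5 females and 11.2 CPM in the 3 males, had a log2 fold change of -0.51 (SE 0.161, edgeR's Benjamini-Hochberg adjusted p = 0.175). *Pifo* stood at 1.71 and 1.11 CPM, *Cfap126* at 2.88 and 1.73 CPM and *Rarres2* at 12.1 and 8.50 CPM, with log2 fold changes of -0.71, -0.76 and -0.56. In 8 of 40 members every male was below every female of its genotype in both genotypes, against 7.92% of all genes. DESeq2 called 3 members lower in males, *Foxj1* (adjusted p = 0.0614), *Cfap126* (0.0947) and *Ak7* (0.0979), where it called 8.64% of all genes. Without a filter on low counts edgeR called *Foxj1* (adjusted p = 0.0848) and 4.52% of all genes. Without KO replicate 1 it called *Dnah6* (adjusted p = 0.0273) and *Dnah11* (adjusted p = 0.0818) and 8.24% of all genes, with Benjamini-Hochberg adjustment in each. In none of these fits was the share of members called above that of all genes.

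With each mouse left out in turn, 34 to 39 of 40 members were lower in males, with medians between -0.527 and -0.291. Members at an unadjusted p under 0.05 in edgeR, 10 with all mice, were fewest without KO replicate 2 or KO replicate 3. Without KO replicate 2, 1 member had an unadjusted p under 0.05 and the median was -0.34, and without KO replicate 3 there were 3 and the median was -0.29. WT had a single male, WT replicate 2, and without that mouse 5 members had an unadjusted p under 0.05. There were also 5 without WT replicate 4, and 6 without WT replicate 3. Without WT replicate 1 there were 16, without KO replicate 1 there were 15, and without KO replicate 4 there were 10. The shares of all genes at this unadjusted threshold are not given for these fits. Calls over all genes in edgeR at an adjusted p under 0.1 moved as well, from 3.77% with all mice to 8.24% without KO replicate 1. The counts therefore cannot be read as particular to the members. All 3 males had a higher level of the cortical list than every female. With that level as a covariate the median log2 fold change of the members between the sexes was -0.0031, with 20 of 40 lower in males. In that fit 0 members had an unadjusted p under 0.05 in edgeR. It also called 0 of all genes between the sexes, so it could not show whether the members differ. With 3 males, sex and the level of the cortical list cannot be told apart.

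**Figure D5:**
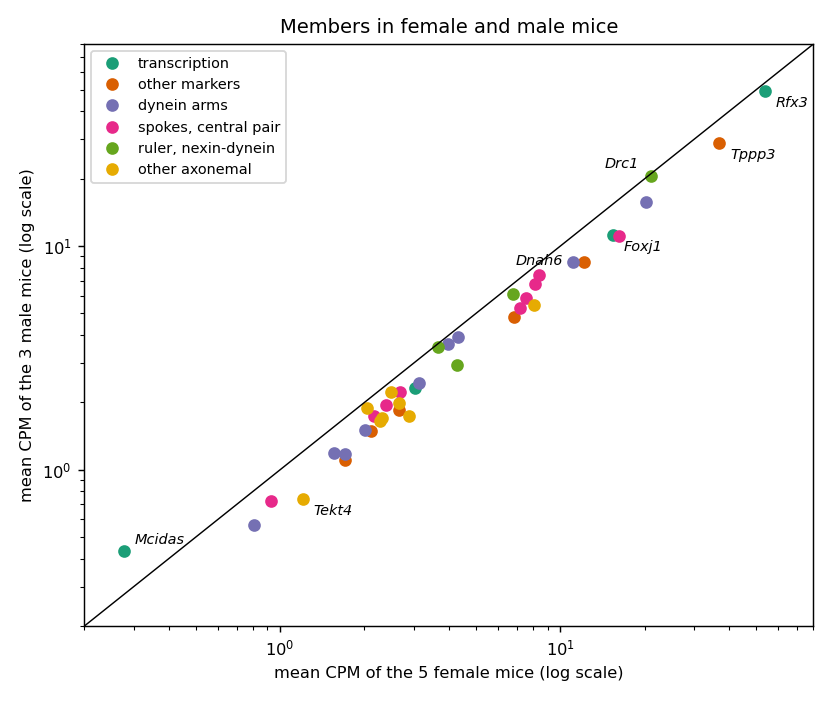
Mean CPM of each of the 40 members in the 5 female mice (x axis) and in the 3 male mice (y axis), both on log scales, with the line of equal levels and the roles in colours. All points but that of *Mcidas* lie below the line, and *Drc1* lies nearly on it.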

How the data were processed

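PolyA RNA of the periventricular area of 4 WT and 4 KO mice was sequenced. The authors demultiplexed reads with bcl2fastq 2.20 and estimated transcripts with Salmon against Gencode M29 of GRCm39, and deposited a gene table of estimated counts, not normalized. They also deposited TPM, length, effective length and estimated counts by transcript, in a table per mouse. How transcripts were summed to genes is not given in the sources used here. TPM deposited per transcript were summed per gene through Gencode M21, which held 97.4% of the transcripts, with 99.2% or more of the reads of each mouse. Promoters came from RefSeq, GRCm38.p6, an older build than the authors'.

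Estimated counts were rounded and tested with edgeR 4.0.16 in R 4.3.3 (TMM, filterByExpr, quasi-likelihood test, Benjamini-Hochberg over all genes tested, adjusted p under 0.1), for KO against WT without covariates and for males against females with genotype. After the fits, the procedure was also run on simulated counts in which 200 genes were changed by 2 on the log2 scale. That run held no smaller changes and no shifts shared by the genes of a mouse, so it does not address these. A standard error is the fold change over the square root of F. Levels of lists are means of log2(CPM + 1). The members and lists were chosen with earlier results of these data known. Named with values per mouse were *Foxj1*, the member with the most reads in each role, the 2 largest fold changes in each direction and the 2 widest and 2 narrowest spreads. *Sass6* was named for its unadjusted p, and *Gm43079*, *Rsph9*, *Ccdc40*, *Mns1*, *Pifo*, *Cfap126* and *Rarres2* after their values were seen. Alternatives were DESeq2 1.42.0 and its size factors, no filter, a minimum of 10 counts, sex or replicate number as a term, females alone and each mouse left out. Litter and day of dissection are not given for each mouse. P-values measure the spread between these mice, in which animal, litter and dissection cannot be told apart. Depth was 47887437 to 74482334 estimated counts per mouse. Members with few counts, from 11 upwards, carry the widest counting error, although the largest standard error, 0.587, was that of *Dnah6* at 214 to 941 counts.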

Additional observations from a re-analysis of the deposited data

Results flagged for a closer look

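In 106 groups of 4 mice of one genotype, over the members and the lists, a single mouse stood far from the other 3 by Dixon's criterion in 4 groups, or 3.77%, where chance gives about 1 in 20. *Ccdc40*, of the molecular ruler of the axoneme, was at 5.89 CPM in WT replicate 4 and between 2.52 and 3.09 CPM in the other WT mice. *Dnah11*, an outer arm dynein heavy chain, was at 0.928 CPM in KO replicate 3 and between 1.61 and 1.74 CPM in the other KO mice. The list of multiciliation regulators was at 0.0989 in KO replicate 2 and between -0.0238 and -0.0135 in the other KO mice, as a mean log2(CPM + 1) less the mean of the 8 mice. The oligodendrocyte list, on the same scale, was at -0.305 in KO replicate 2 and between 0.0103 and 0.0741 in the other KO mice.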

How the results depend on the processing

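With each mouse left out in turn, 0 members were called between genotypes, and their median log2 fold change lay between -0.106, without KO replicate 2, and 0.207. That of the other motile cilia genes lay between -0.0459, also without KO replicate 2, and 0.195, and the KO minus WT difference in the mean level of the members between -0.0814 and 0.142, with -0.0275 without WT replicate 1 and -0.0268 without WT replicate 2. The genes called between genotypes numbered 0 to 3, and 13 in DESeq2, 2 without a filter, 0 with a minimum of 10 counts in every mouse, 2 with sex as a covariate and 3 in females alone. The median log2 fold change of the members was 0.149 with sex as a covariate, with 33 of 40 above 0. In females alone it was 0.241, with 35 above 0 and 1 at an unadjusted p under 0.05 in edgeR. The deviations of same-numbered mice from the means of their genotypes correlated at 0.0856, -0.24, -0.395 and 0.266. Mice of different numbers were not compared, so these values cannot tell whether the numbers pair the mice. With the replicate block 0 genes and 0 members were called and the median of the members was 0.065. With the cortical level as a covariate, added after seeing the data, 2 genes were called and the median of the members was -0.0245. With KO replicates 2 and 3 both left out, 2 genes were called. For males against females, 683 genes became 1565 in DESeq2, 1360 without a filter, 293 at an adjusted p under 0.05, 0 with the cortical level, and 11 (without WT replicate 2) to 1527 (without KO replicate 1) with 1 mouse left out. Members called were 3 in DESeq2, 1 without a filter and 0 to 2 with 1 mouse left out, and their median became -0.0031 with the cortical level.

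Log2 fold changes that changed sign were never past the threshold. Without KO replicate 2 they were -0.0347 for *Foxj1*, whose leave-one-out values reached 0.277, and -0.162 for *Tppp3*, which reached 0.199. With the cortical level they were -0.0168 and -0.00829, and with KO replicates 2 and 3 left out -0.0828 for *Tppp3* and 0.0106 for *Dnah6*. In females alone they were 0.221 for *Ak7*, 0.0132 for *Cfap54*, 0.207 for *Ccdc153* and -0.272 for *Mcidas*. *Ak7* was at 0.0893 with sex as a covariate, and at 0.0714, 0.0836, 0.067 and 0.127 without WT replicates 3 and 4 and KO replicates 1 and 3, with -0.3 as the lowest, without KO replicate 2. *Spag17* was at 0.0419 without WT replicate 4 and -0.595 without WT replicate 1. *Ccdc153* was at 0.0893 without WT replicate 4, and at 0.134 and 0.0173 without KO replicates 3 and 4, with -0.532 as the lowest, without KO replicate 2. Between the sexes, with the cortical level, *Rarres2* was at 0.502, *Tekt4* at 1.92e-05 and *Pifo* at 0.103. For each of them the cause was not tested. Members at few counts, from 11 upwards per mouse, carry the widest counting error.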

Other observations

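*Tekt2*, a tektin gene that is not a member and was singled out after its values were seen, was at 0.126, 0.115, 0.149 and 0.489 CPM in WT replicates 1 to 4 and at 0.352, 2.39, 0.106 and 0.536 CPM in KO replicates 1 to 4. KO replicate 2 was far above the other mice, and the log2 fold change of 1.95 (SE 0.921, adjusted p = 1.0 in edgeR, Benjamini-Hochberg) rested on it. *Trp73*, a p53 family gene needed for multiciliated cells, was at 4.51 CPM in WT replicate 4, 4.11 CPM in KO replicate 2 and 2.82 CPM in KO replicate 4, and between 1.13 and 2.0 CPM in the other 5 mice.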
